A study of Homo sapiens with 6 samples.

Results

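The replication-dependent histone genes encode the bulk of the histone protein that packs newly made DNA. They were chosen here by name: H1-1 to H1-5 and every protein-coding gene whose symbol begins with H2AC, H2BC, H3C or H4C, the families formerly named HIST1H to HIST4H. Of the 58174 genes in the expression table, 61 met this rule, namely 5 genes of class H1, 15 of H2A, 17 of H2B, 11 of H3 and 13 of H4. The rule used no measured value.

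The study asked how depletion of FTO, a demethylase of methylated adenosine in RNA, alters gene expression in gastric cancer cells. RNA was sequenced from AGS, an established line grown from a human gastric adenocarcinoma, in 3 libraries that received a negative control siRNA (si-NC) and 3 that received an siRNA against FTO (si-FTO). In the labels the genotype reads FTO-/- for the si-FTO libraries and wild type for the si-NC libraries, whereas the methods describe siRNA transfection of the same line, and group means cannot tell the 2 descriptions apart. Expression is given in TPM, a relative measure of transcript number that is corrected for transcript length, with 1 mean value per group. FTO itself had a mean of 33.1 TPM in si-NC and 7.27 in si-FTO, so 21.9% of its RNA level was still measured (log2 ratio -2.05).

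No value per library was used, so neither the error between libraries nor the sequencing depth behind a value is known, and no difference below has a replicate check or a p-value. Throughout, a log2 ratio is that of si-FTO over si-NC after adding 1 TPM to each mean, which understates the change of genes with low levels, whereas a fold is the plain ratio of the means. A gene was compared when its mean reached 0.5 TPM in at least 1 group, and it is said to have risen or fallen when the log2 ratio was at least 1 in size. The table prints 0.0001 TPM for genes without signal, and these are described as listed at 0.

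The line was checked against marker genes. Of 10 epithelial markers, KRT18 was the most abundant in si-NC, at 52.1 TPM, and reached 1851 TPM in si-FTO. KRT8, its keratin partner, was the most abundant in si-FTO, with 10.8 TPM in si-NC compared with 3139 TPM in si-FTO. The epithelial list summed to 69.9 TPM in si-NC against 5118 TPM in si-FTO, with 5 genes that rose (KRT8, KRT18, ELF3, MUC1 and CLDN4) and 1 that fell (CDH1). Several defining epithelial genes were low in both groups. EPCAM had 1.22 TPM in si-NC and 0.113 in si-FTO. CDH1, which encodes E-cadherin, had 3.67 TPM in si-NC compared with 0.685 TPM in si-FTO. KRT19 was listed at 0 in si-NC, and GRHL2 and ESRP1 were listed at 0 in si-FTO. The epithelial label therefore rested on keratins whose level differed greatly between the groups, and the part of that difference in the histone values was not tested. Whether both groups were the same cells apart from FTO was not tested either, so in every ratio below the depletion of FTO and any other difference between the cells cannot be told apart.

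Markers of other cell types were low, with 2 exceptions. The 8 fibroblast markers summed to 16 TPM in si-NC against 46.8 TPM in si-FTO, and the most abundant was COL1A1, at 10.3 TPM in si-NC and 36.4 in si-FTO. Of this list, 3 genes rose (COL1A1, PDGFRB and FAP) and 1 fell (COL3A1), and COL1A2 was listed at 0 in si-FTO. The 8 immune markers summed to 6.04 TPM in si-NC compared with 7.59 TPM in si-FTO, with PTPRC, the pan-leukocyte marker, listed at 0 in both groups. The most abundant immune marker in si-FTO was CD68, at 6.42 TPM. The 5 endothelial markers found summed to 0.685 TPM in si-NC against 41.3 TPM in si-FTO, nearly all of it from CDH5, with 0.00827 TPM in si-NC and 40.9 in si-FTO, while VWF and TEK stayed near 0. In bulk RNA, fewer cells of a type or cell cycle phase and less RNA per cell cannot be told apart.

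Most mammalian mRNAs end in a poly(A) tail, whereas mRNAs of replication-dependent histones end just after a conserved stem-loop. The stem-loop binding protein SLBP holds this structure, and the U7 small nuclear ribonucleoprotein guides the cut that forms the end. The genes lie in clusters, are transcribed mainly in S phase under the control of NPAT, and their mRNAs are degraded when DNA synthesis stops. Some of these genes can also be read through the stem-loop to a downstream poly(A) site, which gives polyadenylated forms that do not depend on DNA synthesis.

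The stem-loop is the feature that sets these mRNAs apart, so examples are shown from members on which the results turn. They were read from the GRCh37 genome with 5 nt on either side of the stem-loop, 5′ to 3′ on the strand of the gene, with the 16 nt of the stem-loop in capitals. The H1-2 sequence lies at chr6:26055967-26055992 on the minus strand, H2AC6 at chr6:26124892-26124917 on the plus strand, H2BC12 at chr6:27114140-27114165 on the minus strand, H3C6 at chr6:26225819-26225844 on the plus strand and H4C14 at chr1:149804591-149804616 on the plus strand. Each lies in the 3′ untranslated region, in the exon that holds the stop codon, apart from the last base of the H1-2 stretch, which is just past the annotated end.
H1-2: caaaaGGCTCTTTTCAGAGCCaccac
H2AC6: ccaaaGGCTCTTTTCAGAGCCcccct
H2BC12: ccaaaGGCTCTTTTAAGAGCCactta
H3C6: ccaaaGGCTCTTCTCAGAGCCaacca
H4C14: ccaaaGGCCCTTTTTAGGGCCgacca

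A search for the histone stem-loop, as a pattern of 16 nt with free bases at the positions known to vary, on the gene's strand within 100 nt after the stop codon found it in 60 of the 61 members. Over all 19699 protein-coding genes searched, 69 held it (0.35%). Outside the members, 6 were identified by symbol: H1-6, H2AX, H3-4, H3-7, HIST1H4B and HIST2H2AA3. The last 2 carry older names of these families and were not among the members. The rest of the 69 carry names in the annotation that meet the rule, but they were not among the members either. The member without a match was H2BC12L, a lone gene on chromosome 21 outside the histone clusters. The distance from the stop codon to the stem-loop ranged from 22 to 62 nt, with a median of 35 nt. The pattern was relaxed after the sequences were seen, since 3 members, H3C6 among them, have a C in place of T at the second base of the loop.

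The stem differed by class. The sequence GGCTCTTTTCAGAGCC, as in H1-2 and H2AC6, was held by 35 members of classes H1, H2A, H2B and H3 and by none of H4. In H4 the stem carried more G and C: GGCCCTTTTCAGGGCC was found in 8 members and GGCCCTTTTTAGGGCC in 4, all of them H4 genes. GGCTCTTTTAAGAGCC, as in H2BC12, was held by 7 members.

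As a group, the histone genes had higher mean levels in si-FTO than in si-NC. The 61 members summed to 239 TPM in si-NC against 932 TPM in si-FTO, a 3.89-fold difference. The median member had 0.882 TPM in si-NC compared with 2.15 TPM in si-FTO, so most of these genes were at low levels in both groups. A mean of at least 10 TPM was reached by 3 members in si-NC and by 11 in si-FTO. Counted by plain means, 43 members were higher in si-FTO, 12 were lower and 6 were listed at 0 in both groups.

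The filter on low values kept 46 members and set aside 15. Of the 46, 24 rose (52.2%), whereas 11.4% of the 20493 genes compared did so. Only 2 of the 46 fell (4.35%), namely H2AC16 and H2AC12, beside 17% of all genes compared. The other 20 lay between the thresholds. The median log2 ratio was 1.05 over these 46, with a range from -1.14 to 3.77, and -0.20 over all genes compared. Because a member with a high level in only 1 group passes the filter through that group, these figures describe the 46 and not the whole family. Over all 61 members the median log2 ratio was 0.75.

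**Figure D1:**
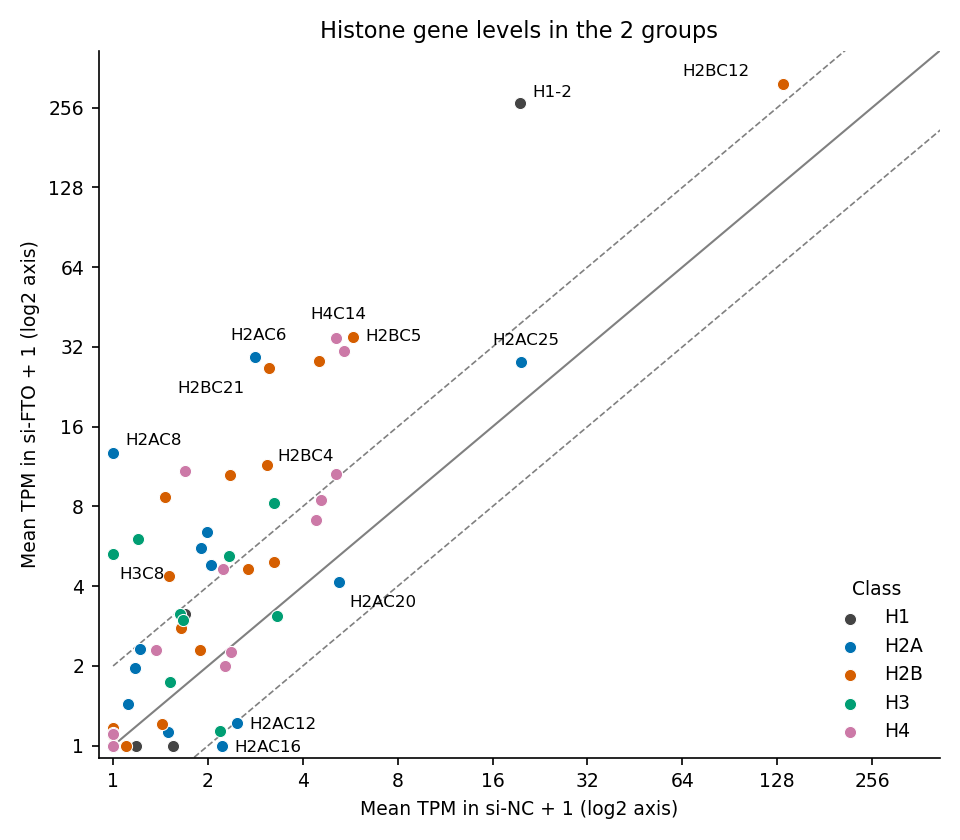
Mean level of each of the 61 histone genes in si-NC (horizontal) and si-FTO (vertical), in TPM plus 1 on log2 axes, with 1 point per gene coloured by class; the solid line marks equal levels and the dashed lines a log2 ratio of 1 in either direction. Of the points, 24 lie above the upper dashed line, H1-2 and H2BC12 are the most abundant, and H2AC12 and H2AC16 lie below the lower dashed line.

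Linker histones of class H1 bind the DNA where it enters and leaves the nucleosome. A single gene made up nearly all of this class: H1-2 had 18.5 TPM in si-NC against 265 TPM in si-FTO, a 14.3-fold difference with a log2 ratio of 3.77. No member had a larger log2 ratio, but with a pseudocount of 0.1 TPM H1-2 had 3.83 and came after H2AC8 (6.88), H3C8 (5.46), H3C4 (4.12) and H2AC6 (3.89). H1-4 had 0.690 TPM in si-NC and 2.13 in si-FTO (log2 ratio 0.89). H1-5 went the other way, from 0.548 TPM in si-NC to a listed 0 in si-FTO (log2 ratio -0.63). H1-1 was listed at 0 in both groups, and H1-3 had 0.182 TPM in si-NC and was listed at 0 in si-FTO. The class summed to 19.9 TPM in si-NC compared with 267 TPM in si-FTO, but without H1-2 the fold of the sums fell from 13.4 to 1.5. H1 thereby went from 8.33% of the summed histone level in si-NC to 28.7% in si-FTO.

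Histones H2A and H2B form dimers on the outer faces of the nucleosome core. Among the genes analysed, H2B was the most abundant class in both groups, with a summed level of 153 TPM in si-NC against 442 TPM in si-FTO (2.88-fold). Most of it came from H2BC12, at 132 TPM in si-NC against 313 TPM in si-FTO, a 2.36-fold difference with a log2 ratio of 1.23. Without this gene, the fold of the H2B sums was 6.21. Of 12 H2B genes compared, 8 rose and 0 fell, and the median log2 ratio was 1.72, or 0.79 over all 17 H2B members.

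The other abundant H2B genes started from a few TPM. H2BC5 had 4.78 TPM in si-NC compared with 33.9 TPM in si-FTO (log2 ratio 2.60). H2BC11 had 3.51 TPM in si-NC against 27.2 TPM in si-FTO (2.65). H2BC21 had 2.12 TPM in si-NC against 25.7 TPM in si-FTO, a 12.1-fold difference (3.10). H2BC9, from a lower level, had 0.461 TPM in si-NC against 7.67 TPM in si-FTO, a 16.6-fold difference (2.57), and with a pseudocount of 0.1 TPM its log2 ratio of 3.79 exceeded the 3.54 of H2BC21. H2BC21 is a member of the chromosome 1 cluster that is also known to give a polyadenylated mRNA. H2BC4 had 2.08 TPM in si-NC compared with 10.5 TPM in si-FTO (1.90). H2BC26 had the smallest log2 ratio of the 12, 0.28, with 0.882 TPM in si-NC against 1.29 TPM in si-FTO. No compared H2B gene had a lower mean in si-FTO, also after median-ratio scaling and quantile normalization of the group means, whereas H2BC6 and H2BC3, set aside by the filter, did.

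With the pseudocount of 1 TPM, H2A was the only class that held both genes that rose and genes that fell. Among the genes analysed, which leave out H2AC18 and H2AC19, the class summed to 31.4 TPM in si-NC and 87.2 in si-FTO (2.78-fold). Of 11 genes compared, 5 rose and 2 fell, with a median log2 ratio of 0.93, or 0.51 over all 15 H2A members. In si-NC the most abundant was H2AC25, at 18.7 TPM, which had 27.1 TPM in si-FTO and did not reach the threshold (log2 ratio 0.51). In si-FTO the most abundant was H2AC6, which had 28.4 TPM against 1.82 TPM in si-NC, a 15.6-fold difference (log2 ratio 3.38). H2AC8 was listed at 0 in si-NC and had 11.7 TPM in si-FTO, the largest log2 ratio of the class, 3.67. These 3 genes held most of the H2A level in si-FTO.

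The falls within H2A were at low levels. H2AC16 had 1.21 TPM in si-NC and was listed at 0 in si-FTO (log2 ratio -1.14). H2AC12 had 1.47 TPM in si-NC compared with 0.216 TPM in si-FTO (-1.02), and it was not past the threshold under median-ratio scaling (-0.94) or quantile normalization (-0.80). H2AC20 had 4.23 TPM in si-NC against 3.17 TPM in si-FTO, and its log2 ratio of -0.33 became 0.02 under quantile normalization. Both genes that fell were under 1.5 TPM in each group, and the number of reads behind such values is unknown.

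Histones H3 and H4 form the tetramer at the centre of the nucleosome. Among the genes analysed, which leave out H3C2 and H3C3, H3 was the least abundant of the 4 core classes, with a sum of 10.4 TPM in si-NC and 32.1 in si-FTO (3.08-fold), and none of its 11 members reached 10 TPM in either group. Of 10 H3 genes compared, 5 rose and 0 fell, with a median log2 ratio of 1.05. The most abundant in si-FTO was H3C10, at 2.25 TPM in si-NC compared with 7.28 TPM in si-FTO (1.35). H3C4 had 0.196 TPM in si-NC against 5.03 TPM in si-FTO (2.33). H3C8 was listed at 0 in si-NC and had 4.30 TPM in si-FTO, the largest log2 ratio of the class, 2.41. The lowest ratio was that of H3C12, with 1.19 TPM in si-NC and 0.140 in si-FTO (-0.94). H3C6, the most abundant H3 gene in si-NC at 2.30 TPM, had 2.08 TPM in si-FTO, and its log2 ratio of -0.10 turned positive under both other scalings.

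Nearly all H4 genes encode the same protein, but H4C2 and H4C6 were not analysed, so the sum of the class leaves out part of its genes. It was 24.5 TPM in si-NC compared with 104 TPM in si-FTO, a 4.25-fold difference, which fell to 1.91-fold without the members annotated past the stem-loop. Of 10 H4 genes compared, 5 rose and 0 fell, with a median log2 ratio of 0.97. H4C14 had 4.08 TPM in si-NC against 33.6 TPM in si-FTO (log2 ratio 2.77). H4C15 had 4.41 TPM in si-NC and 29.9 in si-FTO (2.52). These neighbours on chromosome 1 have identical coding sequences, so reads may have been split between them in either way, and their joint level was 8.49 TPM in si-NC compared with 63.5 TPM in si-FTO. H4C8 had 0.695 TPM in si-NC against 9.92 TPM in si-FTO, a 14.3-fold difference (2.69). H4C9 had 4.08 TPM in si-NC and 9.60 in si-FTO (1.06), just past the threshold. At the other end, H4C3 had 1.27 TPM in si-NC compared with 1.00 TPM in si-FTO, and its log2 ratio of -0.18 became positive under quantile normalization.

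**Figure D2:**
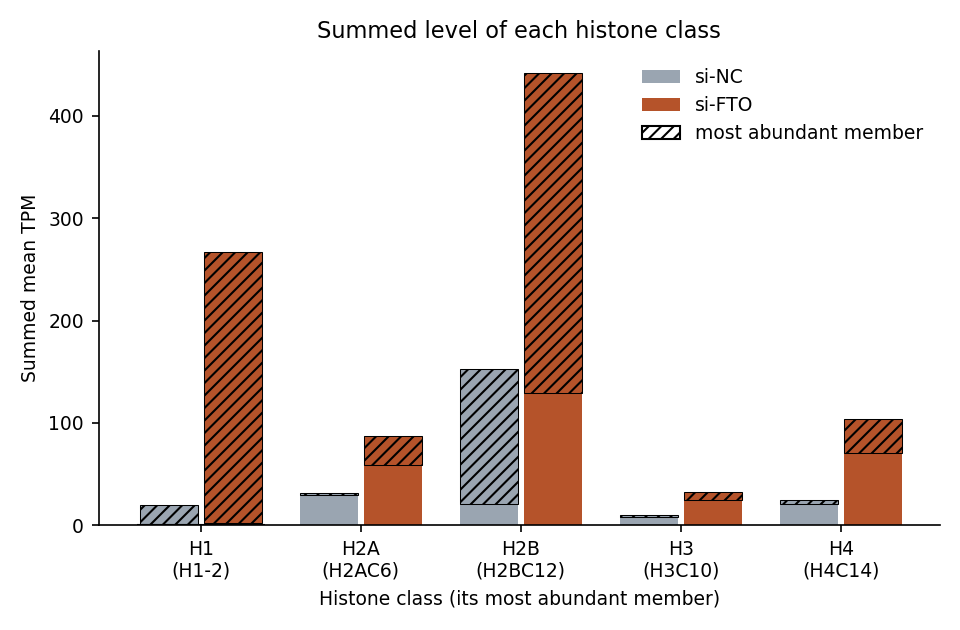
Summed mean TPM of the members of each histone class in si-NC (grey) and si-FTO (red), with the hatched part giving the member that reached the highest level in either group. H1-2 makes up nearly all of the H1 sums and H2BC12 most of the H2B sums, while the rise of H4 and H2A is spread over more genes; H2A goes from 31.4 TPM to 87.2 TPM.

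Which member of a class carries the reads is uncertain, since the coding sequences are close copies. Between members of equal coding length, the median identity of coding sequences was 90.2% in H2B, 85.8% in H3, 85.6% in H2A and 83.8% in H4. The closest H2B pair reached 98.9%. Apart from H4C14 and H4C15, identical coding sequences were shared by H3C14 and H3C15, with a joint level of 2.67 TPM in si-NC against 8.41 TPM in si-FTO, and by H4C11 and H4C12, with 6.98 TPM in si-NC and 13.5 in si-FTO. The joint levels were higher in si-FTO in all 3 pairs. In addition, 28 members overlap another annotated gene, 16 of them a gene on the opposite strand. The kit keeps the strand, but whether the counting used it is not given in the sources used here.

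The members were then ordered along the chromosomes, with members under 500 kb apart placed in 1 cluster. The counts and sums of the clusters leave out the genes of these families that were not analysed. The first cluster on chromosome 6, at 25723625 to 26285866 in GRCh37, holds 27 members. Its sum was 37.1 TPM in si-NC compared with 389 TPM in si-FTO, a 10.5-fold difference, the largest of the clusters. Of its 17 members compared, 9 rose and 0 fell, with a median log2 ratio of 1.90. Over all 27 members the median was 0.23, and 7 had a lower mean in si-FTO. Much of the sum came from H1-2, and without it the fold was 6.66. The cluster was uneven: 10 of its 27 members stayed under 0.5 TPM in both groups, while H1-2, H2AC6, H2AC8, H2BC4 and H2BC5 each had over 10 TPM in si-FTO.

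The second cluster on chromosome 6, from 27093676 to 27115341, has 5 members and contained H2BC12. It was the most abundant cluster in si-NC, with 142 TPM, and had 355 TPM in si-FTO (2.49-fold). Its members were H2BC11, H2AC11, H4C9 and H2BC12, which rose, and H2AC12, which fell on the deposited scale but under neither other scaling. Without H2BC12 the fold of the sums was 4.23. The third cluster on chromosome 6, from 27775257 to 27861669, holds 16 members and summed to 18.5 TPM in si-NC against 45.6 TPM in si-FTO (2.46-fold). Of its 12 members compared, 4 rose and 1 fell, with a median log2 ratio of 0.75. The most abundant there in si-FTO was H2BC17, with 1.35 TPM in si-NC and 9.50 in si-FTO. This cluster held 3 of the members with the lowest ratios of their class, H2AC16, H1-5 and H3C12.

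On chromosome 1, the cluster from 149754245 to 149859515 has 9 members, which summed to 18.8 TPM in si-NC compared with 107 TPM in si-FTO (5.69-fold). Of its 8 members compared, 6 rose and 0 fell, with a median log2 ratio of 1.35. Most of this sum came from H4C14, H4C15 and H2BC21. The pair H2AC25 and H2BC26, from 228622478 to 228650805, had the smallest difference of any cluster, with 19.6 TPM in si-NC against 28.4 TPM in si-FTO (1.45-fold). The 2 lone genes were H4C16 on chromosome 12, with 1.24 TPM in si-NC and 3.63 in si-FTO (log2 ratio 1.05), and H2BC12L on chromosome 21, with 1.68 TPM in si-NC compared with 3.63 TPM in si-FTO (0.79). The sums were thus higher in si-FTO at every location, by 1.45-fold to 10.5-fold.

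**Figure D3:**
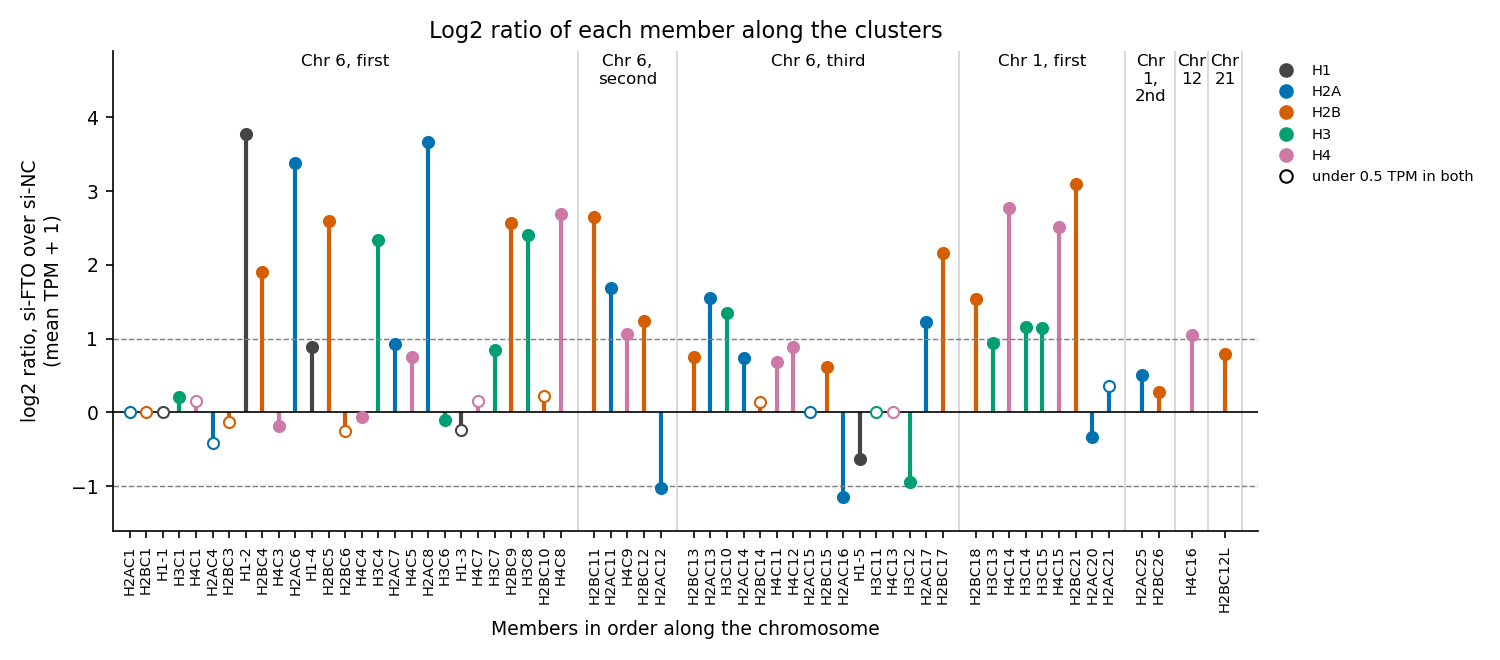
Log2 ratio of si-FTO over si-NC (mean TPM plus 1) for the 61 histone genes in their order along each cluster, coloured by class, with open points for genes under 0.5 TPM in both groups and dashed lines at 1 and -1. Genes with high and low ratios alternate within clusters, as in the first cluster on chromosome 6, and of the ratios below 0, those of H2AC20, H4C3, H4C4 and H3C6 turn positive under another scaling.

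Other genes near the clusters were also examined. Within 500 kb of the 5 clusters lay 70 other protein-coding genes, of which 56 were compared, with a median log2 ratio of -0.33. Of these 56, 7 rose and 12 fell, beside 11.4% and 17% of all genes compared. Around the first cluster on chromosome 6, 12 such genes were compared, with a median of 0.31, 3 of them higher and 2 lower by the threshold. Among those higher, HFE overlaps the member H2BC4 on the opposite strand, and another gene spans H3C4 and H2AC7 on their strand. Around the second, 6 genes had a median of -0.80, with 0 that rose and 2 that fell, and around the pair H2AC25 and H2BC26, 13 genes had a median of -0.77, with 2 that rose and 6 that fell. The medians around the other clusters were -0.21 on chromosome 1 and -0.29 on chromosome 6.

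Many H2A and H2B genes start back to back and share the stretch between their start sites. Among the members, 11 such pairs had start sites at most 1000 nt apart, 10 of them an H2A with an H2B gene at distances of 194 to 251 nt, and 1 of them H3C7 with H2BC9 at 979 nt. Both genes were compared in 8 pairs, and in 6 of these both had a log2 ratio above 0. In 3 pairs both genes rose. H2BC4 and H2AC6, whose start sites are 246 nt apart, had log2 ratios of 1.90 and 3.38. In 2 pairs the directions differed. H2BC12 had a log2 ratio of 1.23, whereas H2AC12, which starts 251 nt away, had -1.02. H2BC21 had 3.10, whereas H2AC20 at 236 nt had -0.33, which became 0.02 under quantile normalization. Sharing a start region therefore did not go with a shared ratio in each pair.

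**Figure D4:**
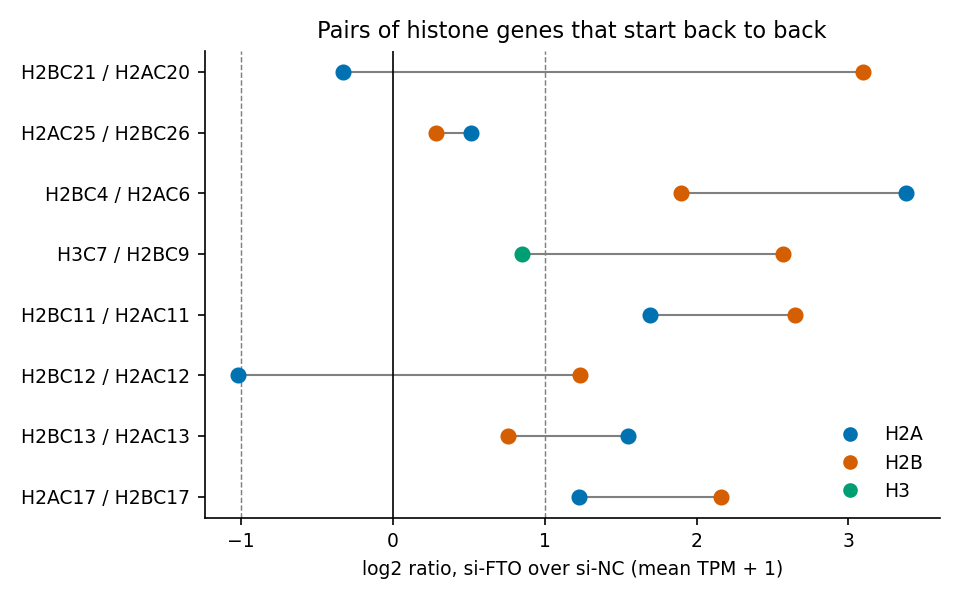
Log2 ratio of si-FTO over si-NC (mean TPM plus 1) of both genes in the 8 back-to-back pairs where each gene was compared, joined by a line and coloured by class, with dashed lines at 1 and -1. In 6 pairs both points lie above 0, and in the pairs H2BC12 with H2AC12 and H2BC21 with H2AC20 the H2A gene lies below 0, although H2AC20 turns positive under quantile normalization.

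Promoter sequences from RefSeq (GRCh38.p14), covering each start site and the stretch just before it, were found for 55 of the 61 members and were searched on both strands. The octamer ATTTGCAT, the site known for the factor POU2F1, was present in 24 of the 55 members' promoters (43.6%) and in 1.80% of all 27305 promoters. It was held by 11 of 14 H2A and 12 of 16 H2B promoters, by 1 of 9 H3 promoters and by 0 of 5 H1 and 0 of 11 H4 promoters. TATAAA was found in 67.3% of the members' promoters, beside 12% of all promoters. CCAAT was found in 83.6%, beside 35.7% of all, and among the members it was held by every H1, H2A, H2B and H3 promoter but by only 2 of 11 H4 promoters. None of these motifs contains another, and a match marks letters, not binding.

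Members were split by motif with no filter, since 5 of the 16 compared members with the octamer passed the filter through si-FTO alone. The median log2 ratio was 1.08 over the 24 members with the octamer and 0.85 over the 31 without it, and 12 rose in each set. For TATAAA it was 0.85 over the 37 members with it and 0.99 over the 18 without it. The octamer lies almost wholly in H2A and H2B genes, so class and motif cannot be told apart.

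The annotation also tells how far each gene extends. For 17 members the annotated gene runs over 50 nt past the stem-loop, which allows for polyadenylated forms, and for 43 it ends at the stem-loop. The 17 extended members summed to 52.1 TPM in si-NC against 248 TPM in si-FTO (4.76-fold), and of the 15 compared, 11 rose and 0 fell, with a median log2 ratio of 1.90. The 43 others summed to 186 TPM in si-NC and 681 in si-FTO (3.67-fold), and of the 30 compared, 13 rose and 2 fell, with a median of 0.91. With no filter, the median log2 ratio was 1.54 over the 17 extended members and 0.69 over the 43 others. A lower mean in si-FTO was found for 2 of the 17 and 10 of the 43. The sums of both sets were thus higher in si-FTO.

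By class, the extended H4 genes, H4C8, H4C14, H4C15 and H4C16, summed to 10.4 TPM in si-NC compared with 77.0 TPM in si-FTO (7.39-fold). The other 9 H4 genes summed to 14.1 TPM in si-NC against 26.9 TPM in si-FTO (1.91-fold). In H2B the extended genes summed to 16.5 TPM in si-NC and 106 in si-FTO (6.42-fold), and the others, H2BC12 among them, to 135 TPM in si-NC compared with 332 TPM in si-FTO (2.46-fold). Without H2BC12, an alternative chosen after seeing the data, those others had 2.55 TPM in si-NC against 19.2 TPM in si-FTO (7.55-fold), above the extended H2B genes. In H2A and H3 the extended genes had the smaller fold of the sums. It was 2.70 beside 2.92 for the other H2A genes and 2.05 beside 3.88 for the other H3 genes. The H2A medians ran the other way under the filter, with a log2 ratio of 1.95 over the 2 extended genes compared and 0.93 over the other 9. With no filter they were 0.51 and 0.55. Of the extended H2A genes, H2AC25 had a fold of 1.45, H2AC6 had 15.6 and H2AC1 was listed at 0 in both groups. H1-2, with its large rise, is annotated to the stem-loop only. TPM divides by transcript length, and for genes annotated in a short and a long form the level depends on the forms assumed.

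Whether RNA was selected by its poly(A) tail or depleted of ribosomal RNA is not given in the sources used here. RNAs that end without a poly(A) tail were therefore listed beside the histones. Of 14 such RNAs, 9 were found by symbol, and 4 entries reached 0.5 TPM. They include MALAT1, a nuclear RNA with a folded end, which had 8.40 TPM in si-NC against 49.4 TPM in si-FTO (log2 ratio 2.42). RMRP, the RNA of a ribonuclease, had 0.613 TPM in si-NC and 9.24 in si-FTO (2.67). One of the 2 entries for RN7SK had 6.76 TPM in si-NC compared with 17.1 TPM in si-FTO (1.22), while the other was listed at 0 in both groups. RNY1 had 0.161 TPM in si-NC against 0.680 TPM in si-FTO (0.53). The list summed to 16.1 TPM in si-NC and 76.9 in si-FTO, so their sum moved in the direction of the histone genes, and the part of RNA selection in the histone values was not tested.

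Genes of S phase were set beside the histones because their transcription is tied to that phase. All 30 listed genes were compared, with a median log2 ratio of -0.10, which became 0.12 under median-ratio scaling. Of these, 0 rose and 4 fell, or 2 under median-ratio scaling. GINS1 and CDC45, parts of the replicative helicase, had log2 ratios of -1.32 and -1.01. PRIM1, the primase, had 84.0 TPM in si-NC against 41.2 TPM in si-FTO (-1.01). The most abundant gene in si-NC, the helicase subunit MCM7, had 355 TPM in si-NC and 334 in si-FTO. The most abundant in si-FTO was PCNA, the sliding clamp, with 295 TPM in si-NC compared with 449 TPM in si-FTO, below the threshold. Thus no S phase gene rose by the threshold, and the share of cells in S phase was not measured.

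Genes that drive histone transcription stayed mostly within the threshold. Of 11 listed genes, 0 rose and 1 fell, with a median log2 ratio of -0.19 that came close to 0 under both other scalings. NPAT, the coactivator of these promoters, had 8.93 TPM in si-NC against 8.85 TPM in si-FTO, and its log2 ratio of -0.01 became 0.18 under median-ratio scaling. COIL, which encodes coilin of the Cajal body, fell from 37.9 TPM in si-NC to 18.2 TPM in si-FTO (-1.02), although it was not past the threshold under the other scalings. POU2F1, the octamer factor, had 10.3 TPM in si-NC and 6.69 in si-FTO. The most abundant gene of the list was YY1 in si-NC, at 83.3 TPM, and CDK2, the kinase that phosphorylates NPAT, in si-FTO, at 118 TPM.

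The 20 genes of histone 3′ end processing all had a log2 ratio below 0, with a median of -0.50, although 0 passed the threshold, 12279 of the 20493 genes compared were below 0 as well, and 4 were above 0 under median-ratio scaling. SLBP, which binds the stem-loop, had 104 TPM in si-NC compared with 60.5 TPM in si-FTO (log2 ratio -0.77). LSM11, a component particular to the U7 particle, had 17.3 TPM in si-NC against 9.14 TPM in si-FTO (-0.86), the lowest ratio of the list. SNRPB, shared with the spliceosome, was the most abundant, at 657 TPM in si-NC and 600 in si-FTO. The ratios of SLBP and LSM11 stayed below 0 under both other scalings.

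Genes of export, translation and decay of histone mRNA showed no change past the threshold among 12 compared, with a median log2 ratio of -0.12 that became 0.09 under median-ratio scaling. ERI1, the exonuclease that trims the stem-loop end, had 11.3 TPM in si-NC compared with 12.1 TPM in si-FTO. SRSF3, an adaptor of histone mRNA export, was the most abundant, with 170 TPM in si-NC against 152 TPM in si-FTO.

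Among 22 genes of histone chaperones and their partners, 1 rose and 1 fell, with a median log2 ratio of -0.32. ATRX, which deposits H3.3 together with DAXX, had 11.2 TPM in si-NC and 32.9 in si-FTO (1.47). CHAF1B, a subunit of the factor that deposits new H3 and H4 during replication, had 40.5 TPM in si-NC compared with 14 TPM in si-FTO (-1.47). SSRP1, part of the FACT complex, was the most abundant in si-NC, with 550 TPM, and had 314 TPM in si-FTO. RBBP7 was the most abundant in si-FTO, with 414 TPM.

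Replacement histones are made throughout the cell cycle from polyadenylated mRNAs and were far more abundant than the replication-dependent genes in this table. The 11 genes summed to 2630 TPM in si-NC against 2569 TPM in si-FTO. Their median log2 ratio was 0.05, which became 0.26 under median-ratio scaling and -0.02 under quantile normalization. H3-3A, the most abundant in both groups, had 830 TPM in si-NC and 857 in si-FTO. H2AX, which has both a stem-loop and a poly(A) form, had 143 TPM in si-NC compared with 100 TPM in si-FTO (-0.51). Of the list, 1 gene rose and 1 fell. H2AJ, a neighbour of H4C16 on chromosome 12, had 23.8 TPM in si-NC against 172 TPM in si-FTO (2.80). MACROH2A2, a variant with a large extra domain, had 83.0 TPM in si-NC and 0.0494 in si-FTO (-6.32). Of 8 germline variants, 1 was compared, H3-5, with 0.624 TPM in si-NC against 0.211 TPM in si-FTO.

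**Figure D5:**
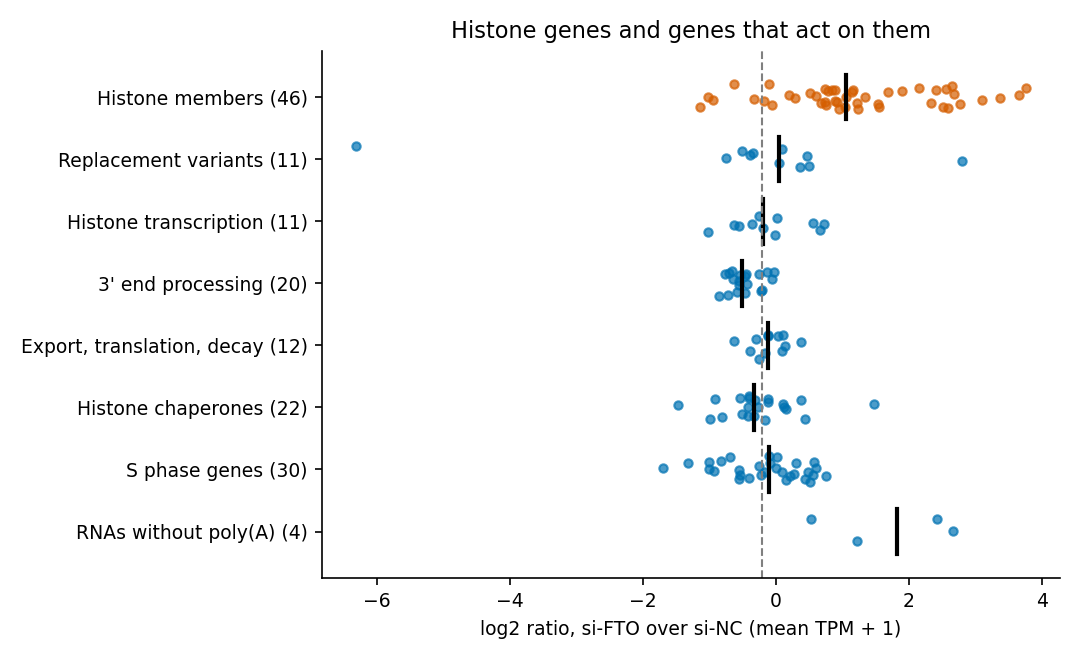
Log2 ratio of si-FTO over si-NC (mean TPM plus 1) of each compared gene of the histone family and of 7 lists of other genes, with the number compared in brackets, a black bar at each median and a dashed line at the median of all genes, -0.20. The histone members lie mostly to the right of that line, with a median of 1.05, and the genes of 3′ end processing mostly to its left, with a median of -0.50; 4 of these 20 genes are above 0 under median-ratio scaling.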

How the data were processed

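The authors deposited TPM as 1 mean over the libraries of each group, beside their own comparison of the groups (a log2 ratio, p-values and q-values), which was not used. Reads were mapped to hg19 with Bowtie and quantified with RSEM according to the methods, whereas the submitters' processing notes name HISAT2. The annotation is not given in the sources used here. A symbol was found for 55726 of 58174 IDs. H2AC18, H2AC19, H2BC7, H2BC8, H3C2, H3C3, H4C2 and H4C6 were not analysed here. Values of 0.0001 TPM were read as 0, and a pseudocount of 1 TPM and a minimum of 0.5 TPM were used. No test of a difference between the groups was run. Members, lists and rules were chosen with earlier results of these data known. Named members have at least 10 TPM in a group, the highest level or the largest rise or fall of a class, or 0 in 1 group, and list genes were named by role, level or passing the threshold. Other names were chosen after their values were seen. Coordinates and stem-loops come from GRCh37 with a GENCODE annotation lifted to that build. Alternatives were a pseudocount of 0.1, no filter or a minimum of 5 TPM, median-ratio scaling, quantile normalization and sums without single members. Further ones were sums without members annotated past the stem-loop, members with identical coding sequences summed, and 0.0001 TPM kept as a value with no pseudocount. Python 3.11.15, numpy 2.4.6, pandas 2.3.3 and pysam 0.24.0 were used. The calls were also tried on simulated data, the outcome of which is not given here.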

Additional observations from a re-analysis of the deposited data

Results flagged for a closer look

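Pseudogenes of the histone families lie outside the members, and 16 of them are in the table. Of these, 5 reached 0.5 TPM in at least 1 group. Among the 5, 3 rose, beside 11.4% of all genes compared, and these 3 are given here because they rose. H2BC19P had a mean of 5.32 TPM in si-NC and 14.9 in si-FTO (log2 ratio 1.33). HIST2H2BC, listed under its older name, had 5.66 TPM in si-NC compared with 13.8 TPM in si-FTO (1.15). H2AC10P was listed at 0 in si-NC and had 2.62 TPM in si-FTO (1.86). The levels of H2BC19P and HIST2H2BC exceed those of most members, and 6 of the 16 were listed at 0 in both groups. Whether these reads came from the pseudogenes or from members with similar sequence was not tested.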

How the results depend on the processing

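The medians, counts and sums of the members, classes and clusters were recomputed with 1 choice changed at a time. Of the values so obtained, 101 stayed within 1.5-fold of the reported value, 26 moved further and 0 changed sign. Among the other gene lists, the medians of S phase, of export, translation and decay, and of replacement variants changed sign under another scaling. Median-ratio scaling shifts the log2 of the plain ratio by 0.21, and the ratio after adding 1 TPM by less at low levels, and gives 28 members that rose, quantile normalization gives 31, and a pseudocount of 0.1 gives 33. Under these the median of the members was 1.22, 1.26 and 1.59. With identical coding sequences summed, 22 rose and the median was 1.05. The number that fell was 4 with a pseudocount of 0.1, 1 with median-ratio scaling, 1 with quantile normalization and 0 at a minimum of 5 TPM. Neither H2AC16 nor H2AC12 reached that minimum in either group.

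A minimum of 5 TPM left 20 members, most of which reached it in si-FTO alone. Medians and counts at this minimum therefore lean towards genes that are high in si-FTO. The median log2 ratio was then 2.42 over the members, 2.54 for H2A, 2.57 for H2B, 1.84 for H3 and 1.79 for H4. For H1 it was 3.77, the value of H1-2 alone. The median was 2.77 for the larger chromosome 1 cluster and 2.64 for the first chromosome 6 cluster. With no filter, which adds members near 0, it was 0 for H1, 0.79 for H2B and 0.23 for the first chromosome 6 cluster. With a pseudocount of 0.1, which weighs low levels more, it was 1.5 for H1, 1.93 for H2A, 2.40 for H2B and 2.07 for the larger chromosome 1 cluster. Quantile normalization gave 2.49 for H1, the median of H1-2 and H1-4 alone, since H1-5 no longer met the filter. Without its most abundant member, the fold of the sums was 1.5 for H1, 6.21 for H2B, 6.66 for the first and 4.23 for the second chromosome 6 cluster. Without members annotated past the stem-loop, it was 1.91 for H4 and 1.85 for the larger chromosome 1 cluster.

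Alternatives chosen after seeing the data left out H2BC12L, or H2BC12 and H1-2 together, which gave a sum of 88.5 TPM in si-NC and 354 in si-FTO (4.01-fold), or H2BC12 alone from the H2B genes annotated to the stem-loop (7.55-fold), or dropped the filter in the split by promoter motif, where the medians with and without the octamer had been 1.79 and 0.92 under the filter. No paired analysis was possible because the table holds 1 mean per group although the titles number the libraries, and for the same reason leaving out each library was not run. TPM keeps no depth, so how many reads stand behind values near 1 TPM is unknown.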
